A study of Mus musculus with 14 samples.

Results

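The protease inhibitors of the serpin, cystatin, stefin and WAP families were followed in myeloid cells that had entered experimental brain metastases (BrM) of breast cancer. The set held every gene whose symbol starts with Serpin or Stfa, together with Cst3, Cst6, Cst7, Cstb, Slpi, Wfdc17, Wfdc21 and Ecm1, and 1 probe stood for each gene, the brightest on average over the 14 arrays. These were 68 genes of the 19057 with a probe of 1 symbol. Csta, Serpine2 and Serpina3g are not analysed here.

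The cells were GFP+CD11b+ cells sorted by flow cytometry from 14-week-old C57Bl/6J mice. The mice were chimeras in which only cells derived from the GFP-tagged graft carry GFP, driven by the Ubiquitin C promoter, so that host cells, among them most microglia, lie outside the gate. The 6 conditions were PyMT BrM (4 arrays), EO771 BrM (2 arrays), spleens of mice bearing PyMT BrM (3 arrays), naïve spleens (2 arrays), bone marrow of a mouse bearing PyMT BrM (1 array) and naïve bone marrow (2 arrays). PyMT and EO771 are mouse breast cancer lines, each a single line, that were implanted intracranially and grown for about 2 weeks. Naïve mice carried no tumor and stood in for EO771-bearing mice, whose own spleens and bone marrow were not profiled. Whether the naïve mice were chimeras too is not given in the sources used here. The study's methods list the arrays as biological replicates, but nothing in the labels says whether arrays of a condition come from separate mice. The p-values thus measure the spread between these arrays, which may be technical in part. The title code of EO771 BrM 2 joins numbers by a slash and may mark a pool of mice. The 2 naïve bone marrow arrays carry title codes with a common stem and may come from 1 mouse. They were counted as 2, and averaging them into 1 ended the pooled Cst3 call (adjusted p = 0.0201 by limma), those of Cst3 (0.0272) and Serpinb12 (0.0137) against bone marrow, that of Serpinb6a against spleen (0.0105) and that of Serpinb1a in EO771 BrM against naïve spleen (0.0163).

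Serpins are a family of proteins that trap serine proteases by an irreversible change of shape, although some members inhibit nothing and serve as chaperones or signals. Cystatins and stefins block the cysteine cathepsins of the lysosome, the cystatins mostly as secreted proteins and the stefins in the cytosol. WAP-domain proteins such as Slpi restrain the elastase and cathepsin G that neutrophils release. Neutrophils and macrophages are rich sources of both these proteases and their inhibitors.

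The sort marker and the cell type markers were read first. Itgam, which encodes CD11b, lay between 5.74 and 8.87 on the log2 scale in all arrays and was not called in BrM (log2 difference 0.34, SE 0.50, adjusted p = 0.776 by limma). Of 15 measured neutrophil markers 13 were lower in BrM, and their summed linear signal was 8750 to 23100 in BrM, against 103000 to 174000 in spleen/bone marrow. Of 12 macrophage markers 8 were higher in BrM, with sums of 49200 to 73900 in BrM, against 5000 to 35000 in spleen/bone marrow. Microglial markers summed to 2900 to 19100 in BrM, against 184 to 477 in spleen/bone marrow. Of these, 4 of 8 were higher, namely Fcrls, Olfml3, Tmem119 and Sparc. P2ry12 (0.40, adjusted p = 0.359 by limma), Sall1 (0.54, adjusted p = 0.109), Gpr34 (1.75, adjusted p = 0.115) and Siglech (-0.91, adjusted p = 0.128) were not called. Of the lymphoid and erythroid markers, 3 of 5 for B cells were lower (124 to 235 in BrM, against 585 to 7340), as were 3 of 8 for T and NK cells (127 to 545 in BrM, against 605 to 1630) and 4 of 5 for erythroid cells (313 to 2380 in BrM, against 1810 to 35900). The part of these cells in the inhibitors' differences was not tested. The array labelled PyMT spleen 2 stood apart from the other spleens. It correlated best with PyMT bone marrow 1 over all probes (r = 0.949), against 0.907 and 0.904 with the other PyMT spleens, and its B cell markers summed to 661, against 5710 to 7340 in the other 4 spleens and 585 to 1300 in bone marrow. Results that rest on spleens are therefore also given without it where a call changes.

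The 4 Stfa genes of the mouse stefin A cluster are central to the results, and their upstream sequences are shown because 3 of them fell together in BrM while the fourth was dim. The 250 bases before the start site in the RefSeq annotation of GRCm38.p6 lie on chromosome 16, at chr16:36276898-36277147 (plus strand) for Stfa1, chr16:36408364-36408613 (minus strand) for Stfa2, chr16:36156561-36156810 (plus strand) for Stfa2l1 and chr16:36455393-36455642 (minus strand) for Stfa3. Capitals mark the longest run of bases that all 4 share.
Stfa1: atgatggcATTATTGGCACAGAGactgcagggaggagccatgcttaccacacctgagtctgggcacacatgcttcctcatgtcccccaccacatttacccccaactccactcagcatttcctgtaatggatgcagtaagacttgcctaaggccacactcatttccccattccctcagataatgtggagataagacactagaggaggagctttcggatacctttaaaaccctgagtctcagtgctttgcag
Stfa2: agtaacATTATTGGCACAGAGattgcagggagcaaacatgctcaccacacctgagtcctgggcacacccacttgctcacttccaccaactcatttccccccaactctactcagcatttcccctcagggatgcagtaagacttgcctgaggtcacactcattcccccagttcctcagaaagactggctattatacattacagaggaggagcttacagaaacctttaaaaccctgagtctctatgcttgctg
Stfa2l1: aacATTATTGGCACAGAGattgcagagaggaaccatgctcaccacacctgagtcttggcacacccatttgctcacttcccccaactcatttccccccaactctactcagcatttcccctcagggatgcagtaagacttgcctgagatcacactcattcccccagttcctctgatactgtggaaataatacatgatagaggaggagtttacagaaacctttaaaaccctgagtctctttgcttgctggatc
Stfa3: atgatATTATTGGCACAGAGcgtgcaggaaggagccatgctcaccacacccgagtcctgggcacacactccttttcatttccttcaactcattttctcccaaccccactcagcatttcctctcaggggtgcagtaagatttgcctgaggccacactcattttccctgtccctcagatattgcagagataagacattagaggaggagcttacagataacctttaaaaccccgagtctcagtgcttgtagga
Aligned in pairs, these sequences were 80.4% to 89.4% identical, highest between Stfa2 and Stfa2l1. The shared run of 15 bases occurred on either strand in the upstream 250 bases of 5 of 32851 annotated promoters (0.0152%), namely those of the 4 Stfa genes and of Cstdc5, a cystatin-domain gene. The C/EBP core TTGCNNAA, searched on both strands in windows from 250 bases before to 50 after the start, was found in Stfa1 at positions -109 to -102 from the start and in no other of the 4, while 10.8% of all promoters hold it. The 4 genes are close paralogs, and no probe or transcript sequences were compared here, so how signal is split among them is uncertain.

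Of the 68 inhibitors, 6 were higher and 7 were lower in BrM than in spleen/bone marrow at an adjusted p under 0.01, where 4.89% of all genes were called higher and 4.13% lower. The 13 called genes came from every family but Serpina. Among 26 Serpinb genes 1 was higher and 1 was lower, and among 21 Serpina genes none was called. Of 9 other serpins 2 were higher, of 5 stefins 1 was higher and 3 were lower, of 3 secreted cystatins 1 was higher, all 3 WAP genes were lower, and Ecm1 was higher. The median log2 difference of the 68 was -0.01, and that of all genes was -0.01. In bulk arrays of sorted cells, fewer cells of a type and less RNA per cell cannot be told apart.

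**Figure D1:**
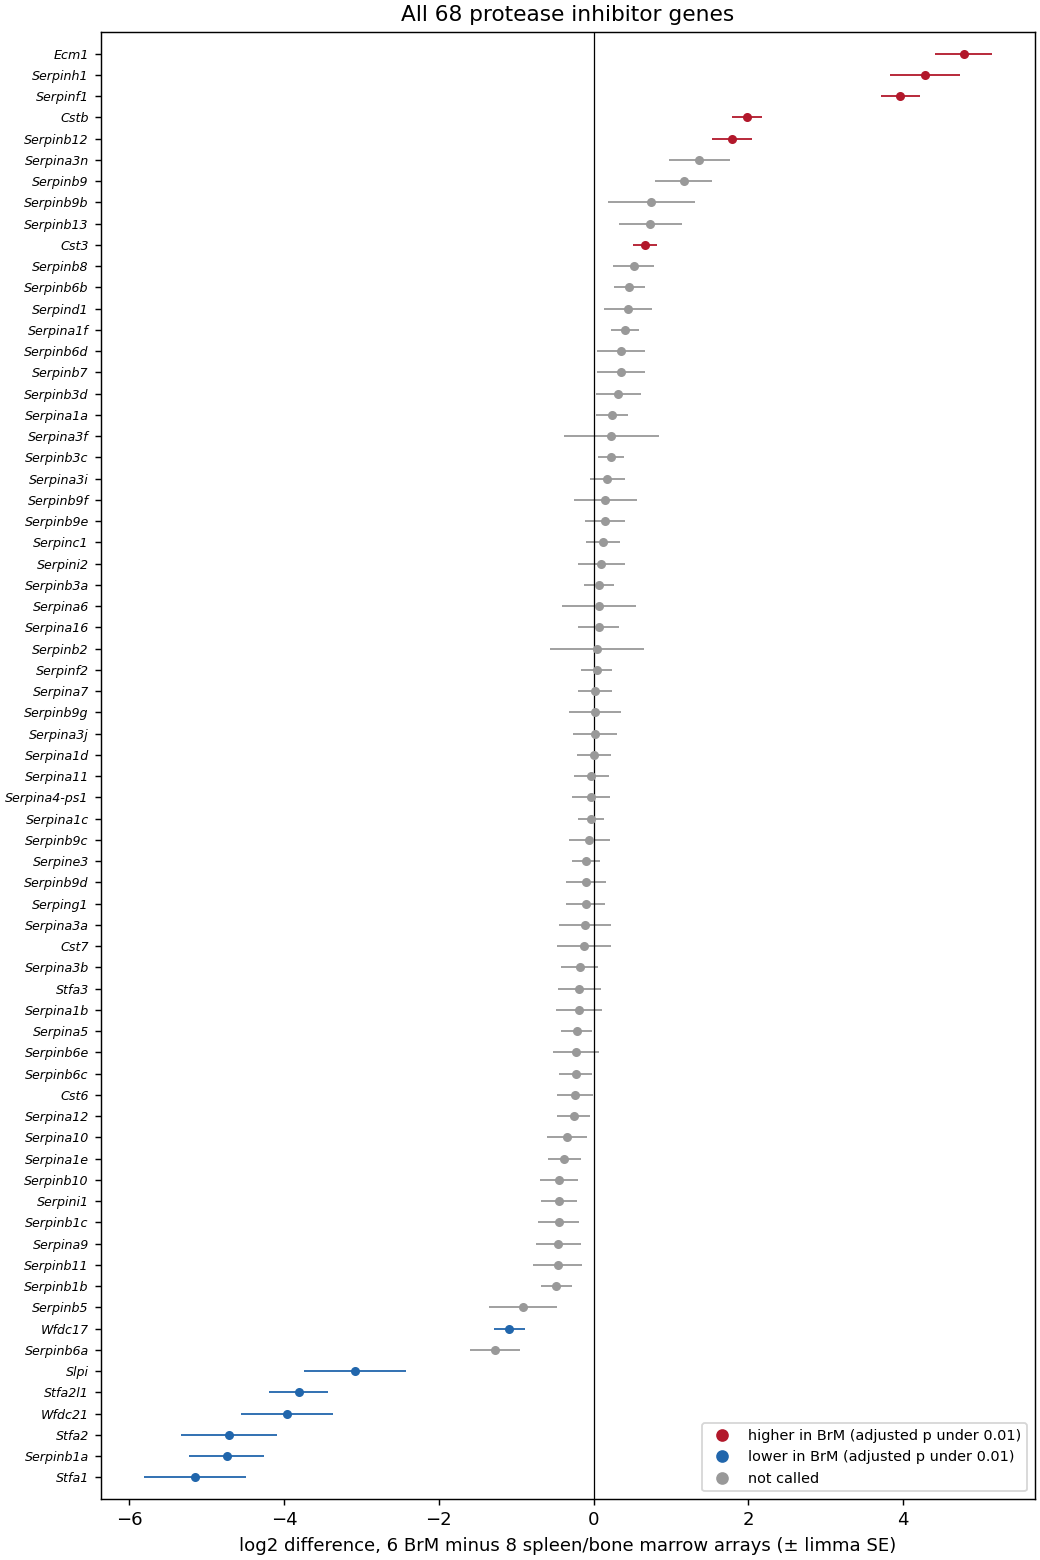
Each of the 68 inhibitors (rows) by its mean log2 signal in the 6 BrM arrays minus that in the 8 spleen/bone marrow arrays, with the limma standard error as bars. The 6 genes called higher (red) run up to 4.78 for Ecm1 and the 7 called lower (blue) down to -5.15 for Stfa1, while the 55 genes not called (grey) lie between -1.27 and 1.37.

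Ecm1, a secreted matrix protein that binds the metalloproteinase MMP9, had the largest rise. Its log2 signal was 12.41, 11.93, 10.66 and 12.45 in PyMT BrM and 12.45 and 11.98 in EO771 BrM. It was 7.67, 6.85 and 8.91 in PyMT spleens, 6.36 and 7.17 in naïve spleens, 6.92 in PyMT bone marrow and 6.84 and 6.86 in naïve bone marrow. The 6 BrM arrays all lay above the 8 others, and the lowest BrM array, PyMT BrM 3, was still above the highest spleen array, PyMT spleen 3. The difference was 4.78 (SE 0.37, adjusted p = 3.33e-07 by limma), a 27.5-fold rise, and a second, dimmer Ecm1 probe gave 3.57 (adjusted p = 7.31e-07).

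The Ecm1 upstream sequence is shown as that of the gene with the largest rise, with a match to the AP-1 motif TGACTCA in capitals. It lies at chr3:95739570-95739819 on the minus strand of GRCm38.p6, and the match, in the opposite orientation, is at positions -64 to -58 from the start.
Ecm1: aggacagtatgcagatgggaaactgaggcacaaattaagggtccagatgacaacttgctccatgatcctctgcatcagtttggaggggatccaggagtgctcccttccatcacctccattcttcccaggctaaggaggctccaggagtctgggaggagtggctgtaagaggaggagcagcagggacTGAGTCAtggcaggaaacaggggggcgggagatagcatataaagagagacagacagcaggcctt
The motifs were counted on either strand in windows from 250 bases before to 50 after the start, longer than the sequence shown. The AP-1 letters occurred in 5.2% of all promoters and in 8 of the 67 promoters of the 58 inhibitors that matched the RefSeq table. Among the called inhibitors with a promoter there, Ecm1 alone had the AP-1 letters, and the other matches were in inhibitors that were not called. The called genes Serpinb1a, Cstb and Wfdc21 had no promoter there and were not searched. Of the genes of AP-1 itself, Fos rose in BrM by 3.51 (SE 0.39, adjusted p = 1.47e-05 by limma) and Fosb by 4.62 (SE 0.49, adjusted p = 1.12e-05). Jund was not called (-0.17, adjusted p = 0.825). Whether AP-1 bears on any inhibitor was not tested. These AP-1 genes belong to a list of 14 genes induced by tissue dissociation, of which 10 were higher and none lower. That list summed to 19900 to 69000 in BrM, against 8570 to 15000 in spleen/bone marrow, and its part in any inhibitor's difference was not tested. Of the other motifs, the PU.1 letters GAGGAAGT were in 1 of the 67 promoters against 3.2% of all, TTGCNNAA in 20 against 10.8%, and the STAT letters TTCCNGGAA in 3 against 1.15%. The members include families of duplicated neighbouring genes, so these promoters are not independent.

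Serpinh1 and Serpinf1, both serpins that inhibit no protease, rose by similar amounts. Serpinh1 encodes HSP47, the collagen chaperone of the endoplasmic reticulum. It had 8.44, 9.11, 7.30 and 9.0 in PyMT BrM and 9.87 and 10.02 in EO771 BrM, against 4.2, 4.29 and 6.47 in PyMT spleens, 3.92 and 3.93 in naïve spleens, 5.51 in PyMT bone marrow and 4.73 and 4.31 in naïve bone marrow. The groups did not overlap, and the difference was 4.29 (SE 0.45, adjusted p = 1.09e-05 by limma), or 19.5-fold. Serpinf1 encodes PEDF, a secreted factor known for limiting the growth of blood vessels. Its signal was 10.63, 9.83, 9.47 and 9.43 in PyMT BrM and 9.89 and 9.72 in EO771 BrM, against 5.19 to 6.72 (median 5.80) in spleen/bone marrow. Serpinf1 was thus at a like level in both tumor models, 15.6-fold above spleen/bone marrow (log2 difference 3.96, SE 0.25, adjusted p = 5.33e-08 by limma). A second Serpinh1 probe also rose, by 1.21 (adjusted p = 0.00199). A second Serpinf1 probe, annotated to a different transcript and dimmer, showed no such rise at -0.001 (adjusted p = 0.998), with means of 4.75 in BrM and 4.75 in spleen/bone marrow.

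Cells of the surrounding tissue make Serpinh1 and Serpinf1 too, and their markers were read beside them. Of 10 endothelial and fibroblast markers 2 were higher in BrM and none was called lower. Col4a1 rose by 2.82 (SE 0.44, adjusted p = 3.71e-04 by limma) and Dcn by 2.45 (SE 0.28, adjusted p = 2.53e-05). Pecam1 was not called, at -1.48 (adjusted p = 0.0456). The sum of all 10 was 400 to 968 in BrM, against 273 to 811 in spleen/bone marrow, so that the summed values overlapped. Of 10 carcinoma and epithelial markers 2 were higher, with sums of 333 to 983 in BrM, against 152 to 207 in spleen/bone marrow. The part of such cells in the signal was not tested.

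Cstb and Cst3, inhibitors of cathepsins, rose. Cstb, the cytosolic stefin B that inhibits cathepsins, had 13.42, 13.53, 13.67 and 13.28 in PyMT BrM and 14.37 and 14.35 in EO771 BrM, against 11.67 to 11.99 (median 11.72) in spleen/bone marrow. All 6 BrM arrays lay above all others, by 1.98 on average (SE 0.20, adjusted p = 5.26e-06 by limma), or 3.95-fold. Cst3 encodes cystatin C, the main secreted inhibitor of cathepsins, and was bright everywhere. It had 13.09 to 13.41 (median 13.22) in BrM, against 12.28 to 12.88 (median 12.54) in spleen/bone marrow. Its difference was 0.66 (SE 0.16, adjusted p = 0.00965 by limma), and although the arrays did not overlap, the call did not hold without any single one of 11 arrays, with adjusted p up to 0.0271. Cst7 encodes cystatin F, a leukocyte inhibitor that acts on cathepsin C, and its values of 5.13 to 7.11 in BrM and 5.15 to 7.06 in spleen/bone marrow overlapped fully (difference -0.13, adjusted p = 0.89). Cst6 was dim, at 2.92 to 4.12 in BrM and 3.08 to 4.31 in spleen/bone marrow.

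Among the cysteine proteases, which cystatins and stefins bind, 6 of 11 measured cathepsins and legumain rose and none fell, where 4.89% of all genes were called higher, with a median difference of 1.53. Lgmn, the asparagine-specific lysosomal protease, rose by 2.98 (SE 0.48, adjusted p = 4.7e-04 by limma). Ctsl, cathepsin L, rose by 2.57 (SE 0.27, adjusted p = 9.48e-06). Ctsc, cathepsin C, which activates the neutrophil proteases, rose by 2.03, and Ctss, Ctsz and Ctsh rose by 1.88, 1.53 and 1.41. The other 5 were not called, with differences of 3.57 for Ctsk (adjusted p = 0.0111), 0.70 for Ctsb, 0.35 for Ctsf, -0.56 for Ctso and -0.81 for Ctsw. The summed signal of the list was 41600 to 48800 in BrM, against 7290 to 29500 in spleen/bone marrow.

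Serpinb12, a serpin known to inhibit trypsin-like proteases, was the only Serpinb gene called higher. It had 5.43, 5.94, 5.46 and 5.26 in PyMT BrM and 4.46 and 4.64 in EO771 BrM, against 2.72 to 3.90 (median 3.54) in spleen/bone marrow. The 8 spleen/bone marrow arrays lay under the median signal of an array, 4.06, so the rise of 1.79 (SE 0.26, adjusted p = 1.84e-04 by limma) is set against a signal near the background. A second, dimmer probe gave 0.71 (adjusted p = 0.254).

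**Figure D2:**
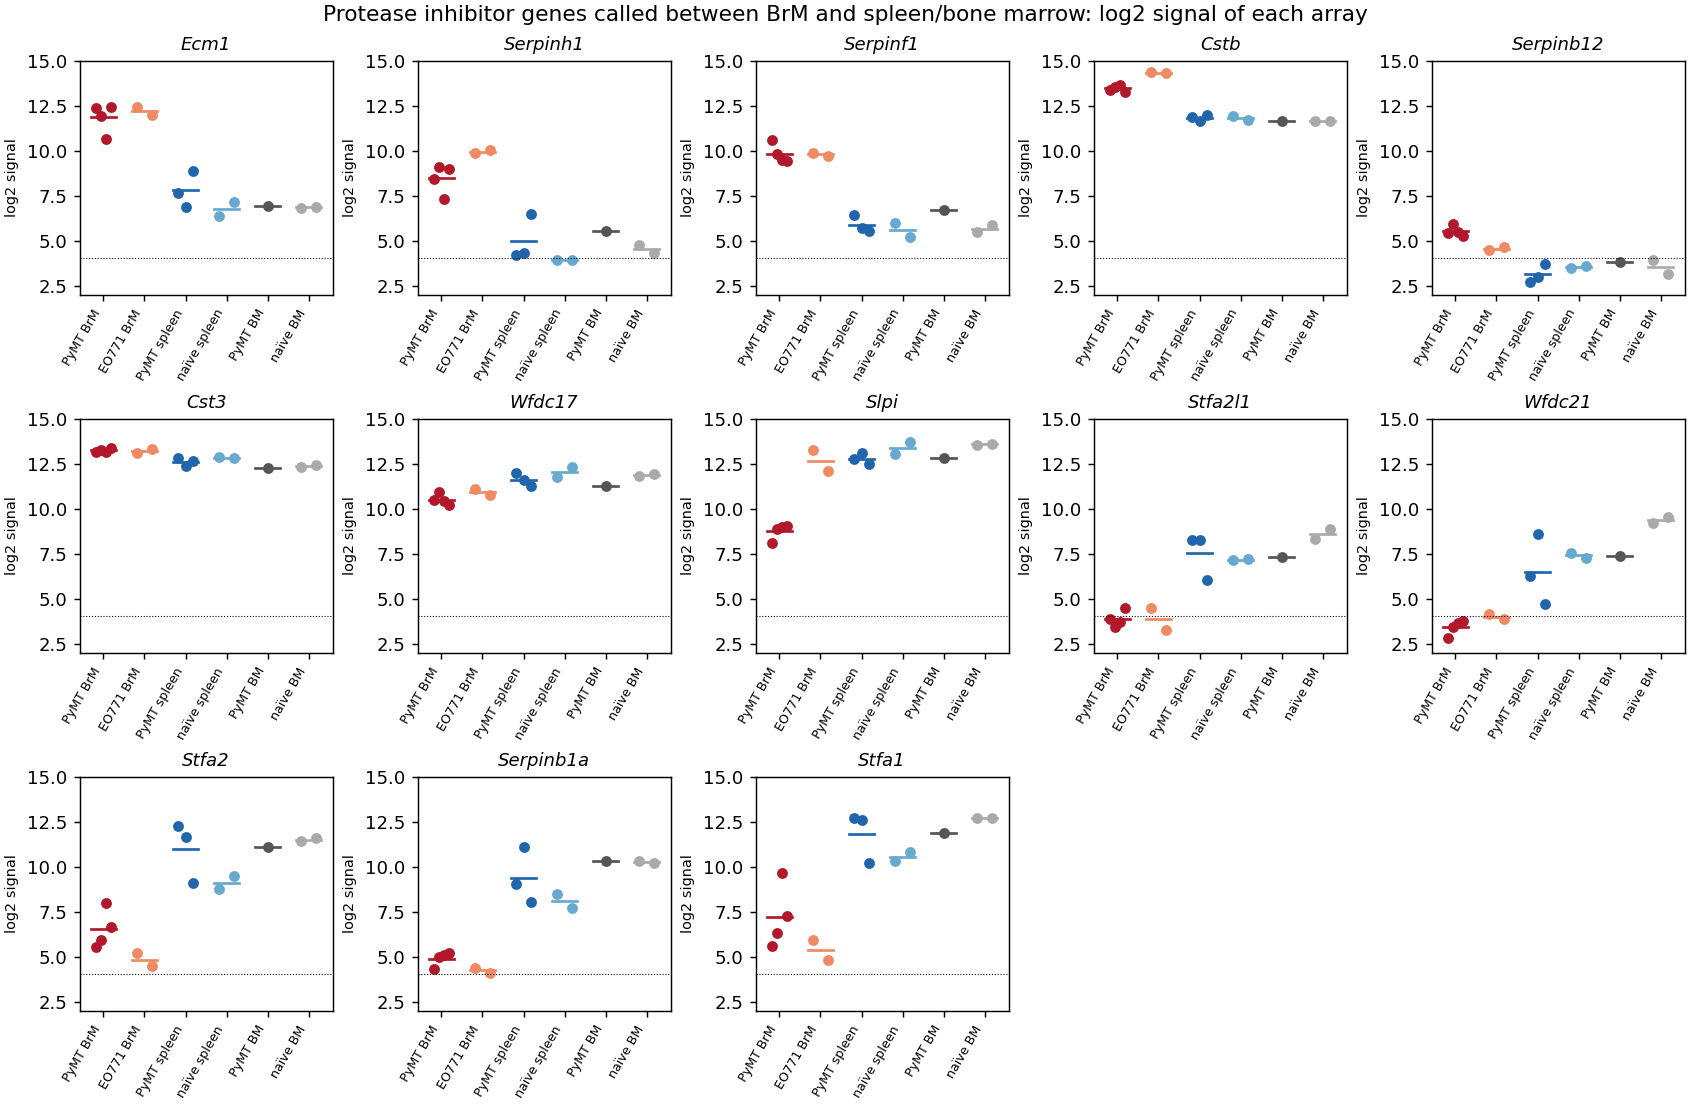
Log2 signal of the 13 called inhibitors on every array (points), by condition, with the condition mean as a bar and the median signal of an array, 4.06, as a dotted line. The BrM arrays of 12 genes lie apart from all spleen and bone marrow (BM) arrays, and Slpi is the exception, with EO771 BrM 1 at 13.28 among the spleen and bone marrow values. The genes were picked by the same comparison, so this separation is no further support. How many of all genes lie apart in this way was not counted.

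The inhibitors that fell included those of neutrophil proteases and the stefin A cluster. Serpinb1a encodes the leukocyte elastase inhibitor, which blocks elastase, cathepsin G and proteinase 3. It had 4.30, 4.97, 5.11 and 5.23 in PyMT BrM and 4.37 and 4.12 in EO771 BrM. Its signal was 9.06, 11.12 and 8.06 in PyMT spleens, 8.48 and 7.74 in naïve spleens, 10.36 in PyMT bone marrow and 10.32 and 10.24 in naïve bone marrow. No BrM array came near the lowest spleen array, and Serpinb1a fell by 4.74 (SE 0.48, adjusted p = 7.72e-06 by limma), or 26.7-fold. Where a group lies near the median signal of an array, as Serpinb1a does in BrM, the background limits the fold that can be read.

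Stfa1, Stfa2 and Stfa2l1, the mouse relatives of human stefin A, fell with it. Stfa1 had 5.62, 6.34, 9.67 and 7.26 in PyMT BrM and 5.93 and 4.83 in EO771 BrM, against 12.72, 12.63 and 10.20 in PyMT spleens, 10.31 and 10.85 in naïve spleens, 11.89 in PyMT bone marrow and 12.70 and 12.73 in naïve bone marrow. PyMT BrM 3 was the highest of the BrM arrays and still lay under the lowest spleen. Its difference of -5.15 (SE 0.66, adjusted p = 6.79e-05 by limma) was the largest fall of the set, at 35.5-fold. Stfa2 had 5.57, 5.92, 7.99 and 6.68 in PyMT BrM and 5.19 and 4.46 in EO771 BrM, against 8.75 to 12.27 (median 11.27) in spleen/bone marrow, a difference of -4.71 (SE 0.62, adjusted p = 8.42e-05 by limma). PyMT BrM 3 was again the highest BrM array. Neutrophil markers summed to 8750, 12600, 23100 and 22400 in PyMT BrM 1 to 4, and to 18300 and 13200 in EO771 BrM 1 and 2. Their part in the stefin values was not tested. Stfa2l1 had 3.24 to 4.48 (median 3.79) in BrM, near the median signal of an array, against 6.03 to 8.86 (median 7.78) in spleen/bone marrow (difference -3.81, SE 0.38, adjusted p = 6.23e-06 by limma). Second probes gave -4.95 for Stfa1 and -3.89 for Stfa2 with the same calls, whereas a second Stfa2l1 probe, at means of 3.19 in BrM and 2.90 in spleen/bone marrow, gave 0.29 (adjusted p = 0.727). Stfa3 reached at most 4.19 on any array, and its difference was -0.18 (adjusted p = 0.78).

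All 3 WAP genes were called lower. Wfdc21 had 2.84 to 4.16 (median 3.69) in BrM, against 4.71 to 9.58 (median 7.46) in spleen/bone marrow, a difference of -3.96 (SE 0.60, adjusted p = 2.81e-04 by limma). PyMT spleen 3, at 4.71, was the spleen nearest to BrM, and the 2 naïve bone marrow arrays, at 9.24 and 9.58, were the highest. Wfdc17, a WAP-domain gene of activated macrophages and microglia, had 10.24 to 11.13 (median 10.62) in BrM, against 11.25 to 12.32 (median 11.81) in spleen/bone marrow. It fell by 1.09 (SE 0.21, adjusted p = 0.00184 by limma), or 2.12-fold, with no overlap. Slpi, the secretory leukocyte protease inhibitor, fell by 3.08 (SE 0.66, adjusted p = 0.0047 by limma) in the pooled comparison, in which the 2 tumor models did not move alike. This call was lost without any one of the 4 PyMT BrM arrays or of the 2 naïve bone marrow arrays, with adjusted p up to 0.0149.

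The neutrophil proteases that Serpinb1a and Slpi restrain were lower in the same arrays. Of 6 measured neutrophil, mast cell and other serine proteases 3 fell and none rose, where 4.13% of all genes were called lower. Their median difference was -2.96, and Prss34, Mcpt8 and Cela1 were not called. Elane, neutrophil elastase, fell by 5.01 (SE 0.57, adjusted p = 2.25e-05 by limma). Ctsg, cathepsin G, fell by 4.61 (SE 0.67, adjusted p = 2.16e-04), and Prtn3, proteinase 3, fell by 3.36 (SE 0.62, adjusted p = 0.00152). The list summed to 218 to 1120 in BrM, against 2630 to 12400 in spleen/bone marrow. The part of the lower neutrophil marker sums in the falls of these inhibitors was not tested.

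In other protease systems, several genes rose. The list of plasminogen activation and coagulation held receptors and inhibitors beside proteases. Of its 20 genes 8 rose and none fell, where 4.89% of all genes were called higher and 4.13% lower. The largest rise was that of F7, coagulation factor VII, at 4.12 (SE 0.28, adjusted p = 1.01e-07 by limma). S100a10, a plasminogen receptor subunit, rose by 2.60, Plat, tissue plasminogen activator, by 2.59 and Plau, urokinase, by 2.03. Serpinb2 and Serpini1, which block these activators, gave no call. Serpinb2, plasminogen activator inhibitor 2, spread from 2.53 to 6.06 in BrM and from 2.74 to 6.46 in spleen/bone marrow (difference 0.04, adjusted p = 0.98), and Serpini1, neuroserpin, differed by -0.44 (adjusted p = 0.281). Of 13 kallikreins, matriptases and complement proteases Masp1, of the lectin pathway, rose by 3.41 (SE 0.37, adjusted p = 1.25e-05 by limma) and Htra1 by 1.24. Serping1, the inhibitor of C1 and Masp proteases, stayed near the median of an array at 3.68 to 5.29 in BrM and 4.03 to 5.24 in spleen/bone marrow (difference -0.10, adjusted p = 0.868). Of 8 granzymes and perforin only Gzmm was called, and it fell by 1.46 (SE 0.20, adjusted p = 1.46e-04 by limma).

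**Figure D3:**
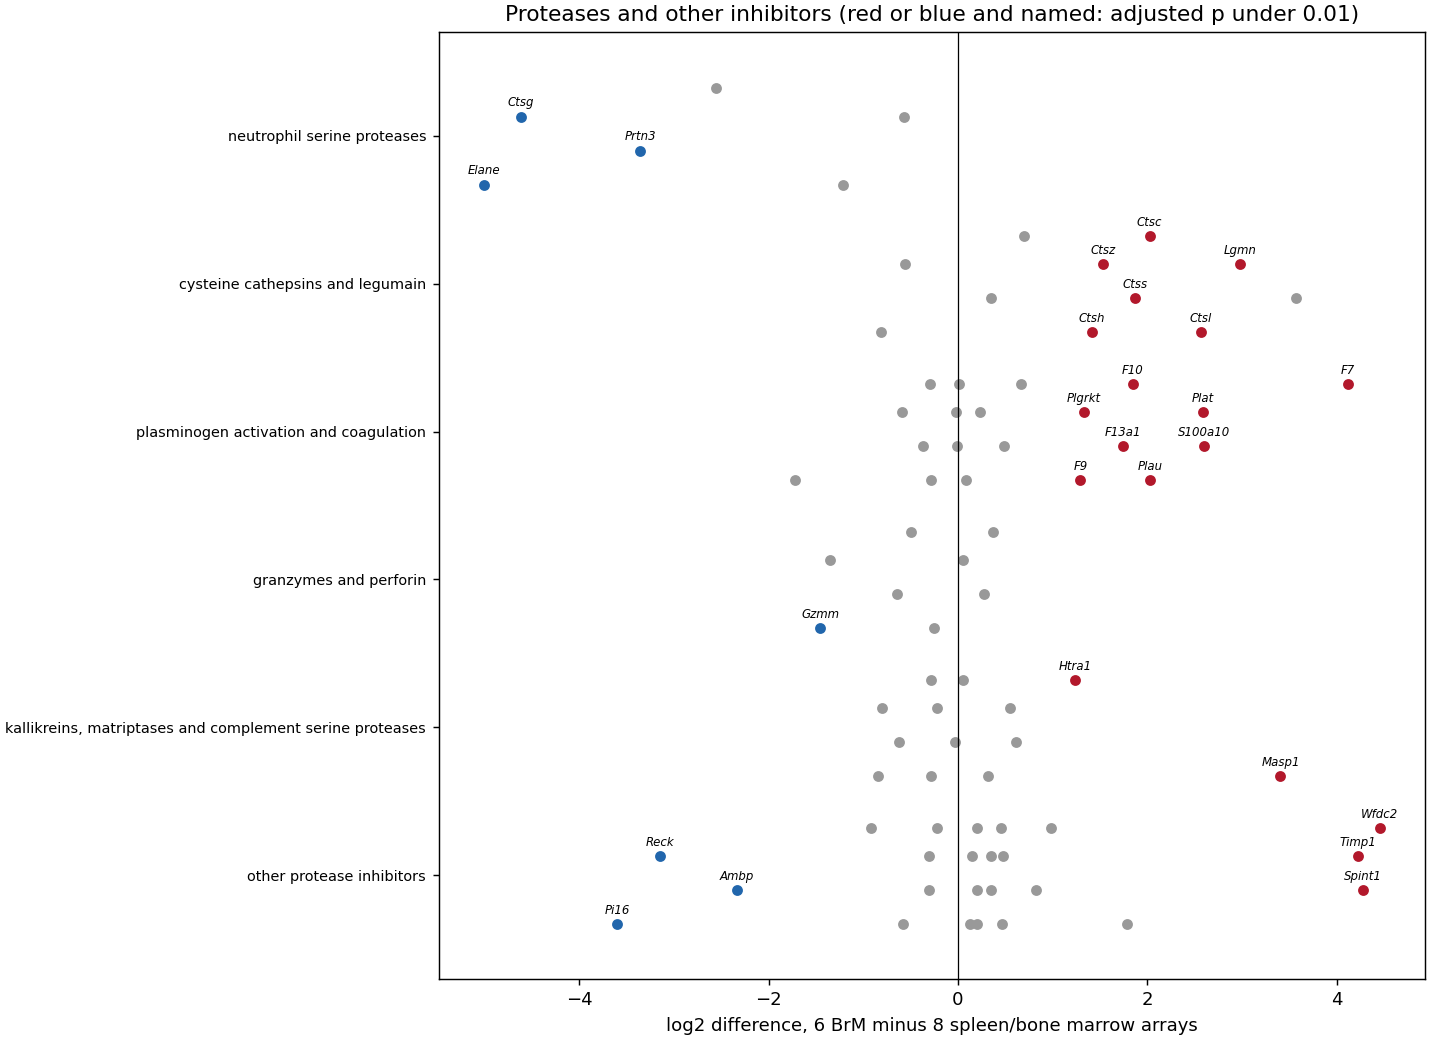
Mean log2 signal in the 6 BrM arrays minus that in the 8 spleen/bone marrow arrays for each measured gene (points) of 5 protease lists and 1 list of other inhibitors, with called genes named. The called cathepsins and coagulation genes all lie right of 0 and the 3 called neutrophil proteases left of it, down to -5.01 for Elane.

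Protease inhibitors of other families moved both ways. Of 24 measured, 3 rose and 3 fell, with a median difference of 0.20, where 4.89% of all genes were called higher and 4.13% lower. Wfdc2, another WAP protein, rose by 4.46 (SE 0.42, adjusted p = 3.21e-06 by limma), the reverse of the 3 WAP genes above. Spint1, a membrane Kunitz inhibitor of matriptase, rose by 4.28 (SE 1.01, adjusted p = 0.00888). Timp1, an inhibitor of metalloproteinases, rose by 4.22 (SE 0.27, adjusted p = 4.95e-08). Pi16 fell by 3.60 (SE 0.30, adjusted p = 7.68e-07), Reck, a membrane inhibitor of metalloproteinases, by 3.15 and Ambp, the precursor of bikunin, by 2.34.

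Of the 55 inhibitors not called, 37 had a mean at or under the median of all probe means, 3.99, and no array of these exceeded 4.74. Serpinb6a, Serpina3n and Serpinb9 had the lowest adjusted p among them. Serpinb6a, which inhibits cathepsin G, had 9.01 to 9.91 (median 9.25) in BrM, against 9.64 to 11.78 (median 10.53) in spleen/bone marrow, and 5 of 6 BrM arrays lay under all others (difference -1.27, SE 0.32, adjusted p = 0.014 by limma). It was called without PyMT spleen 2 (adjusted p = 0.00949) or without naïve bone marrow 1 (adjusted p = 0.00744). Serpina3n, which in mice blocks granzyme B and cathepsin G, had 5.42, 5.72, 4.70 and 6.54 in PyMT BrM and 3.89 and 4.36 in EO771 BrM, against 2.92 to 4.85 (median 3.67) in spleen/bone marrow (difference 1.37, SE 0.39, adjusted p = 0.0283). PyMT BrM 1, 2 and 4 lay above all other arrays, while PyMT BrM 3 and EO771 BrM lay within the range of spleen/bone marrow. Serpinb9, the granzyme B inhibitor, had 2.56 to 3.57 in BrM, against 0.35 to 3.35 in spleen/bone marrow, all under the median of an array (difference 1.16, adjusted p = 0.0518).

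Serpina3f was singled out after its values were seen, because its arrays fell into a low and a high set that cross the conditions. It had 7.70, 7.39 and 7.61 in PyMT BrM 2, 3 and 4 but 4.76 in PyMT BrM 1, and 5.18 and 5.23 in EO771 BrM. It had 7.33 and 7.33 in PyMT spleens 1 and 3 but 4.85 in PyMT spleen 2, 7.06 and 6.87 in naïve spleens, 5.85 in PyMT bone marrow and 4.67 and 4.69 in naïve bone marrow. Its pooled comparison gave no call (BrM mean 6.31, SD 1.39, n = 6, and spleen/bone marrow mean 6.08, SD 1.21, n = 8).

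With spleen and bone marrow set apart, each condition weighed equally within a side. Against spleens, 5 inhibitors were higher and 8 lower in BrM, where 4.61% of all genes were higher and 3.89% lower. Against bone marrow 6 were higher and 6 lower, where 5.46% of all genes were higher and 5.19% lower. The comparisons share the BrM arrays. Serpinh1 differed by 4.75 against spleen (SE 0.45) and 4.19 against bone marrow (SE 0.53), Ecm1 by 4.75 (SE 0.42) and 5.15 (SE 0.50), and Serpinf1 by 4.08 (SE 0.28) and 3.63 (SE 0.33). Cstb differed by 2.07 against spleen and 2.24 against bone marrow. Stfa1 differed by -4.92 (SE 0.70) against spleen and -6.0 (SE 0.84) against bone marrow, Stfa2 by -4.39 and -5.63, and Serpinb1a by -4.19 (SE 0.46) and -5.75 (SE 0.54). Wfdc21 differed by -3.26 and -4.67. Cst3 was called only against bone marrow, at 0.90 (adjusted p = 0.00686 by limma) against 0.50 for spleen (adjusted p = 0.0616). The Cst3 call was lost without any of 10 arrays in turn, with adjusted p up to 0.0346, and the Wfdc21 call against spleen without EO771 BrM 2 or naïve spleen 1, with adjusted p up to 0.0116. The Serpinb12 call against bone marrow was lost without any of 6 arrays in turn, with adjusted p up to 0.0277, and under 5 other alternatives, among them the second probe (adjusted p = 0.77). Wfdc17 was called lower against spleen, at -1.10, but not against bone marrow. Its call against spleen was lost without EO771 BrM 1, EO771 BrM 2 or naïve spleen 2, with adjusted p up to 0.0288.

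Serpinb6a was called against spleen, at -1.66 (SE 0.33, adjusted p = 0.006 by limma), and that call was lost without any of 10 arrays in turn, with adjusted p up to 0.0398. Without the array labelled PyMT spleen 2 it was -1.93 (adjusted p = 3.05e-04). Leaving out that array kept the 5 and 8 calls against spleen.

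Between spleen and bone marrow directly, no inhibitor was called by limma (6 at an unadjusted p under 0.05), where 0.00525% of all genes were called. The differences, spleen minus bone marrow, were -1.56 for Serpinb1a (SE 0.55, adjusted p = 0.19) and -0.94 for Cst7 (SE 0.36, adjusted p = 0.219). Without PyMT spleen 2, Serpinb1a and Wfdc21 were called, both lower in spleen than in bone marrow. Between spleens of mice bearing PyMT BrM and naïve spleens none of the 68 was called (13 at an unadjusted p under 0.05), where 0.0787% of all genes were, and leaving out PyMT spleen 2 did not change this count.

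Each tumor model was then set against its own comparator. PyMT BrM differed from PyMT spleens in 10 inhibitors, 5 higher and 5 lower, where 6.07% of all genes were called in either direction. EO771 BrM differed from naïve spleens in 5, 4 higher and 1 lower, where 2.85% of all genes were. Ecm1, Serpinh1, Serpinf1 and Cstb were called higher and Serpinb1a was called lower in both. The Ecm1 call in EO771 BrM was lost without EO771 BrM 1 (adjusted p = 0.0129) or naïve spleen 1 (adjusted p = 0.011). The Serpinh1 call in PyMT BrM was lost without PyMT spleen 1 (adjusted p = 0.0106) and with the methods' t-test (adjusted p = 0.0133). The Serpinb1a call in EO771 BrM was lost without any of 11 arrays in turn, with adjusted p up to 0.079. Serpinb12, Slpi, Stfa1, Stfa2 and Stfa2l1 were called in the PyMT comparison alone. Across all 6 conditions 11 inhibitors differed by limma's F test, where 12.2% of all genes did. These were Cstb, Ecm1, Serpinb12, Serpinb1a, Serpinf1, Serpinh1, Slpi, Stfa1, Stfa2, Stfa2l1 and Wfdc21.

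Stfa1, Stfa2 and Stfa2l1 had differences of like size in both models and were called in the PyMT comparison only, and Wfdc21 was called in neither. Stfa1 differed by -4.63 (SE 0.85) in the PyMT comparison and by -5.2 (SE 1.11, adjusted p = 0.0188 by limma) in the EO771 comparison, and Stfa2 by -4.47 (SE 0.71) and -4.30 (SE 0.93, adjusted p = 0.0197). Stfa2l1 differed by -3.65 (SE 0.51) and -3.32 (SE 0.67, adjusted p = 0.0141). For Wfdc21 the PyMT difference was -3.10 (SE 0.66, adjusted p = 0.0104), and the EO771 difference was -3.41 (SE 0.86, adjusted p = 0.0425). Without PyMT spleen 2 the PyMT comparison called Serpinb6a and Wfdc21 and no longer Stfa1 (adjusted p = 0.0168), and the EO771 comparison called Stfa2l1 and Wfdc21 as well. In the PyMT comparison the Stfa1 call was also lost without PyMT BrM 1, 2 or 4 or PyMT spleen 1, with adjusted p up to 0.0253, and the Stfa2 call without PyMT spleen 1 (adjusted p = 0.0107). With the 3 PyMT BrM and 3 PyMT spleens whose title codes share a stem fitted as pairs, 6 arrays in all, only Slpi and Serpinf1 of the 10 were called.

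**Figure D4:**
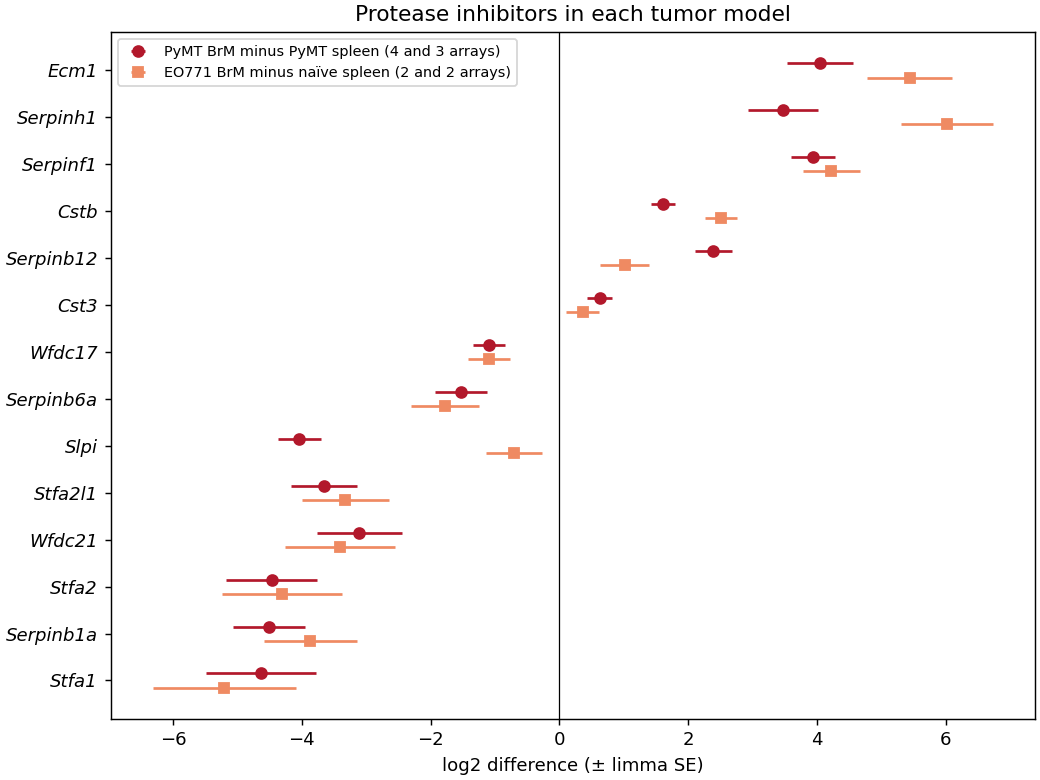
Log2 differences, with limma standard errors as bars, of PyMT BrM minus PyMT spleen (circles) and EO771 BrM minus naïve spleen (squares) for the 13 inhibitors called in the pooled comparison and Serpinb6a. Slpi is at -4.04 in PyMT and -0.70 in EO771, the widest gap between the models.

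Tumor line and the handling of each set of mice cannot be told apart between PyMT BrM and EO771 BrM. Slpi differed between these arrays. It had 8.12, 8.88, 8.98 and 9.03 in PyMT BrM and 13.28 and 12.10 in EO771 BrM. It had 12.78, 13.12 and 12.48 in PyMT spleens, 13.06 and 13.72 in naïve spleens, 12.81 in PyMT bone marrow and 13.58 and 13.61 in naïve bone marrow. The 4 PyMT BrM arrays were thus the only low ones, while EO771 BrM 1 lay within the range of spleens and bone marrow and EO771 BrM 2 just under it. Slpi was lower in PyMT BrM than in EO771 BrM, with a difference of -3.94 (SE 0.37, adjusted p = 3.5e-04 by limma), or 15.3-fold. It was the only inhibitor called in that comparison, where 1.94% of all genes were called. It was also lower in PyMT BrM than in PyMT spleens, with a difference of -4.04 (SE 0.33, adjusted p = 2.97e-05). Between EO771 BrM and naïve spleens it was not called (difference -0.70, SE 0.43, adjusted p = 0.492).

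The difference between the 2 comparisons was also tested. No inhibitor was called by limma (8 at an unadjusted p under 0.05), where 0.042% of all genes were. Slpi came nearest at -3.34 (SE 0.54, adjusted p = 0.0352), then Serpinb12 at 1.38 (adjusted p = 0.292), Cstb at -0.90 (adjusted p = 0.297) and Serpinh1 at -2.55 (adjusted p = 0.304). Tumor line, tumor status of the comparator mice and the handling of each set of mice cannot be told apart in this test.

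Marker values stood as follows beside the Slpi difference. Neutrophil markers summed to 8750 to 23100 in PyMT BrM and 13200 to 18300 in EO771 BrM, so that the models overlapped, and none of them was called between the models. Single neutrophil markers still differed both ways, PyMT BrM minus EO771 BrM, with a median of 0.74. They ran from 3.25 for Ngp (adjusted p = 0.0555 by limma) to -1.95 for Chil3 (adjusted p = 0.0546). Mmp9 at 2.72 and Retnlg at 2.29 had the lowest adjusted p, 0.0392. Carcinoma and epithelial markers summed to 431 to 983 in PyMT BrM and 333 to 361 in EO771 BrM, with 3 called higher in PyMT BrM. Microglial markers summed to 9900 to 19100 in PyMT BrM and 2900 to 5170 in EO771 BrM, and platelet markers to 235 to 1040 in PyMT BrM and 876 to 2990 in EO771 BrM. Monocyte markers summed to 7700 to 15100 in PyMT BrM and 17800 to 18800 in EO771 BrM, with Cx3cr1 called higher in PyMT BrM (difference 3.01, adjusted p = 0.0062) and Ly6c1 (difference -5.08, adjusted p = 0.00681) and Vcan (difference -2.88, adjusted p = 0.00149) called lower. Macrophage markers summed to 67400 to 73900 in PyMT BrM and 49200 to 63800 in EO771 BrM, with none called. The dissociation list summed to 19900 to 57800 in PyMT BrM and 54000 to 69000 in EO771 BrM. The part of the neutrophil, monocyte, macrophage, microglial, carcinoma, platelet and dissociation differences in that of Slpi was not tested.

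Other inhibitors differed less between the models. Cstb averaged 13.47 (SD 0.17, n = 4) in PyMT BrM and 14.36 (SD 0.01, n = 2) in EO771 BrM, but the difference of -0.89 (SE 0.21, adjusted p = 0.0312 by limma) missed the threshold. Among the proteases and receptors listed above, Ctss, the cathepsin of antigen presentation, was lower in PyMT BrM, with a difference of -1.83 (SE 0.30, adjusted p = 0.00586). So was S100a10, with -2.43 (SE 0.31, adjusted p = 0.00179). The differences, PyMT BrM minus EO771 BrM, were 0.97 for Serpinb12 (adjusted p = 0.106), 1.47 for Serpina3n (adjusted p = 0.122) and -1.48 for Serpinh1 (adjusted p = 0.197).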

How the data were processed

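RNA of GFP+CD11b+ cells was hybridised to 14 arrays (Illumina MouseWG-6 v2), grouped into 6 conditions by their labels. The values are log2 signals as deposited by the authors, who quantile normalized them. The submitters' processing notes name GenomeStudio 2011.1 and limma, and the background correction is not given in the sources used here. After sorting, values differed between arrays by 0.00192 or less. No detection p-values were used, and arrays carry no counts, so their number limits the precision.

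Of 45281 probes, 34885 had 1 gene symbol in GEO's platform annotation, 18 had several and 10378 none. Each gene was read from its brightest probe. Some genes are not reported here. Models were fitted over all probes with limma 3.58.1 (lmFit and eBayes) in R 4.3.3, with two-sided tests. The p-values were adjusted by Benjamini-Hochberg across every probe, and a gene was called where the adjusted p was under 0.01. The pooled comparison used 2 groups, and the others were contrasts of a fit of 6 conditions. Shares of all genes called were taken over 19057 genes. The inhibitors, gene lists and alternatives were chosen with earlier results of these data known. Named genes were all called inhibitors, a fixed list of well known ones and the called genes of the protease lists, at most 4 per direction in other comparisons. Promoters came from RefSeq (GRCm38.p6), which held 58 of the 68 inhibitors. The fits were tested on simulated data. Alternatives were other probes, normalizations, variance models, filters, thresholds, weights and blocks, and leaving out each array.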

Additional observations from a re-analysis of the deposited data

Results flagged for a closer look

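Of 34 inhibitors checked in the 4 PyMT BrM arrays, 3 had an array far from the others by Dixon's test, which chance gives in about 1 of 20 groups. Serpina3f was 4.76 in PyMT BrM 1, against 7.39 to 7.70 in the other 3 arrays. Slpi was 8.12 in PyMT BrM 1, against 8.88 to 9.03 in the other 3, all of them under EO771 BrM. Serpinb3c was 4.92 in PyMT BrM 4, against 4.47 to 4.53 in the other 3, which is near the median signal of an array. Why these arrays differed was not tested.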

How the results depend on the processing

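The inhibitor differences were recomputed under each alternative, 1676 values in all, of which 1549 kept their side of the threshold, 106 lost the call, 15 gained one and 6 called values changed direction. The sign also changed for 16 values that were not called, all in the pooled comparison: 8 of Serpinb2 (down to -0.29 without EO771 BrM 1), 2 each of Serpina3f, Cst7 and Serping1, 1 of Stfa3, and the second probe of Serpinb6a (0.38). The 6 called values all came from a dimmer second probe: Serpinf1 gave -0.001 in the pooled comparison, -0.22 against bone marrow and -0.075 in PyMT BrM against PyMT spleen, Stfa2l1 gave 0.29 in the pooled comparison and 0.81 against bone marrow, and Serpinb6a gave 0.11 against spleen. The cause was not tested.

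For EO771 BrM against naïve spleen, the 5 calls became 8 with a mean-variance trend or a filter on dim probes, 9 at an adjusted p under 0.05 and 10 with array weights. For the difference between the models the 0 calls became 1, Slpi, with a trend (adjusted p = 0.0067) or at 0.05, and its adjusted p ranged up to 0.164 without EO771 BrM 1. For PyMT BrM against EO771 BrM the 1 call became 2, with Cstb, under a trend, the ordinary t-test, the filter, 0.05 or array weights. Across the 6 conditions, 11 calls became 17 at 0.05 or with array weights. The cause of these changes was not tested beyond the looser threshold itself.

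Leaving out each array gave 5 to 6 higher and 6 to 8 lower in the pooled comparison, 5 to 5 higher and 5 to 8 lower against spleen (5 without EO771 BrM 2), and 4 to 7 higher and 6 to 6 lower against bone marrow. It gave 0 to 2 for spleen against bone marrow, 7 to 11 for PyMT BrM against PyMT spleen and 11 to 13 across the 6 conditions. For EO771 BrM against naïve spleen it gave 3 to 8, with 3 without EO771 BrM 1 or naïve spleen 1 and 8 without PyMT spleen 3. Contrasts with bone marrow as a mean of both its conditions could not be fitted without the lone PyMT bone marrow array. Arms left with 1 array were assumed to vary like the other conditions.

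Within the 3 pairs of PyMT BrM and PyMT spleen arrays, those with the same title code or number correlated at -0.043 to 0.049 in their deviations, and they were not treated as pairs. Naïve arrays with a common code were not checked in this way. With the code as a random block, the estimated correlation was 0.11 in the pooled fit and 0.025 in the fit of 6 conditions. With a replicate block of the 3 code pairs, the 10 calls of PyMT BrM against PyMT spleen became 2, in a fit of 6 arrays. Blocks over all arrays by code or number moved no count by over 1.5 times. Centring on reference genes moved the median of all genes by -0.17 in the pooled comparison and turned no direction of a called inhibitor, and it ended the pooled Cst3 call (adjusted p = 0.0966) and those of Cst3 (0.027) and Serpinb12 (0.0129) against bone marrow.

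The Slpi call of the pooled comparison was lost with the ordinary t-test (adjusted p = 0.0188) and array weights (adjusted p = 0.0138). With 1 or 2 arrays in 4 of the 6 conditions, and no detection calls, small differences and dim probes are measured poorly.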
